A study of Mus musculus with 29 samples.

Results

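The sterol and fatty acid synthesis genes described here are 31 genes chosen by name, of 20956 gene symbols on the arrays. They are 18 enzymes of sterol synthesis (7 of the mevalonate steps and 11 from squalene onwards), 8 enzymes of fatty acid synthesis, and 5 genes that control or move sterols. All 31 were measured and all 31 passed the filter on dim probes (in 1 group or more, a signal well above background on each array). Messenger RNA was measured on 29 single-colour arrays in 9 groups of cultured male mouse cells. ESC (3 arrays) are naive embryonic stem cells of the reporter line HRHnG in 2i/LIF, medium with a pair of kinase inhibitors and the cytokine LIF. Diff (3 arrays) are HRHnG cells after 7 to 8 days in Activin, CHIRON and LIF, labelled as primitive endoderm. Mid and Late (3 arrays each) are Diff cells passaged in nEnd medium to passage 7 to 10 and passage 14 to 15, and each replicate came from a separate set of differentiations. XEN (3 arrays) are extraembryonic endoderm cells, labelled as the line Xen, in their own medium. The second set of arrays holds 2iL (3 arrays; lines HVMC, E14 and E14-NanogGFP, at least 3 passages in 2i with LIF) and NACL (4 arrays; the same lines, HVMC on 2 of the arrays, at least 3 passages in N2B27 with Activin, CHIRON and LIF). It also holds EpiSC (3 arrays; primed epiblast stem cells derived from ESC of a line spelled HRHNG and kept as a stable culture) and ADE (4 arrays; anterior definitive endoderm, made from EpiSC in 4 days).

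Cells make cholesterol from acetyl-CoA through mevalonate and squalene, and fatty acids from citrate-derived acetyl-CoA through malonyl-CoA. The transcription factor SREBP-2, product of Srebf2, mainly drives the sterol genes, and SREBP-1, product of Srebf1, mainly drives the fatty acid genes. When membranes hold enough sterol, INSIG proteins keep the SREBP precursors in the endoplasmic reticulum, while oxysterols activate LXR receptors, which induce the exporter gene Abca1. SREBPs bind sterol regulatory elements and work with the neighbouring factors NF-Y and Sp1.

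Promoter sequences are shown for Hmgcs1, Idi1 and Msmo1 of the sterol arm, Fads2 of the fatty acid arm, and Abca1, which moved the other way. These sequences are a selection from the members that differed between EpiSC and 2iL. They come from RefSeq (GRCm38.p6, 250 bases before to 50 bases after the start of transcription, 300 in all, written 5′ to 3′ along the gene's strand); 24 of the 31 members had an entry, 29 promoters in all. Capitals mark the sterol regulatory element TCACNCCAC and the NF-Y box CCAAT, each searched on both strands, so the NF-Y box also reads ATTGG. The Hmgcs1 promoter lies at chr13:119690101-119690400 (plus strand), Idi1 at chr13:8885356-8885655 (plus), Msmo1 at chr8:64733529-64733828 (minus), Fads2 at chr19:10101454-10101753 (minus) and Abca1 at chr4:53159846-53160145 (minus).
Hmgcs1: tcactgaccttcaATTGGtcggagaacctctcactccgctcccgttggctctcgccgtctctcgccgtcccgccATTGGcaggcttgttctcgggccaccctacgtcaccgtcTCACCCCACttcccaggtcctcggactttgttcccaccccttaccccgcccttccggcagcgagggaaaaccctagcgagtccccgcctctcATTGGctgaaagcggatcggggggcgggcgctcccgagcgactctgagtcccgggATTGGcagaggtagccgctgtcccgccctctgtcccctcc
Idi1: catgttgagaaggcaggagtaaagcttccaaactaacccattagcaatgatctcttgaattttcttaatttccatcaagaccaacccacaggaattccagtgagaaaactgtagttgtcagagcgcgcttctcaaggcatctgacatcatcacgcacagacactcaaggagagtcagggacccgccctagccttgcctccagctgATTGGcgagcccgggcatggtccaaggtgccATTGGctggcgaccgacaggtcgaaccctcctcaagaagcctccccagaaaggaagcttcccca
Msmo1: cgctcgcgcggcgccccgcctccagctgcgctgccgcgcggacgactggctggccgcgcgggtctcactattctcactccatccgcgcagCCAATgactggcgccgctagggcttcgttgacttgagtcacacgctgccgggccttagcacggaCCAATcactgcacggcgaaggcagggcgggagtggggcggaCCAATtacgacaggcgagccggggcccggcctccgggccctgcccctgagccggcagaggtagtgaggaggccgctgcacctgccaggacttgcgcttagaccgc
Fads2: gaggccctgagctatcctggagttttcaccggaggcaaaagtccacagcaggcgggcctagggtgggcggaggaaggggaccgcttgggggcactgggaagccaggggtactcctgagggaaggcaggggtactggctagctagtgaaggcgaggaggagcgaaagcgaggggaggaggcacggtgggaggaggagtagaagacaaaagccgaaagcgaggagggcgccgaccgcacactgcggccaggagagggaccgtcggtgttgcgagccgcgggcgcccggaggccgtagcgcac
Abca1: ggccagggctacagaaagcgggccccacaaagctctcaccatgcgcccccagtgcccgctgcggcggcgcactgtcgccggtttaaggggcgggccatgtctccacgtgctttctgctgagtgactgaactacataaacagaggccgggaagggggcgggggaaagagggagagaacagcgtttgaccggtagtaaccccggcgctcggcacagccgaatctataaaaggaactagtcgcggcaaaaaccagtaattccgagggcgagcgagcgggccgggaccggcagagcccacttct
Hmgcs1 was the 1 member whose window held the sterol regulatory element, starting 137 bases before the start site, beside 4 NF-Y boxes. That element was in 1.24% of all 32851 promoters of the same length. Idi1 held 2 NF-Y boxes and Msmo1 3, while Fads2 and Abca1 held neither motif. Over the sterol arm, 77.8% of 18 promoters held an NF-Y box, against 37.4% of all promoters, and 83.3% held the Sp1-type GC box GGGCGG, against 35.7%. For the fatty acid arm the NF-Y box was in 40.0% of 5 promoters. The E-box CACGTG was in 16.7% of sterol arm promoters and 7.15% of all. An exact LXR repeat (AGGTCA repeated after 4 bases) was in 0 member promoters and 0.0152% of all. Elements that depart from these letters were not searched for, so the count does not show that Abca1 or another member lacks an LXR element. These matches describe the letters in the windows. Fdps, Fdft1, Sqle, Stard4, Scd1, Scd2 and Fads1 had no entry. Dhcr7, Lss, Pmvk, Cyp51, Hsd17b7 and Mvd differed more than Msmo1 between EpiSC and 2iL and had entries, but their sequences are not shown.

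Levels are log2 signals relative to the 75th percentile of each array, so 0 is the level of a probe at that percentile. Differences are log2 with their standard error (SE) from limma fitted to all genes, and a gene was called at an adjusted p under 0.05 over 16333 genes. The share of probes well above background ran from 49.2% to 79.7% per array, and replicates of a group correlated at 0.956 or more. The markers of each label were present: 7 of 7 naive markers on every ESC, 2iL and NACL array, 7 of 7 primitive endoderm markers on every Diff, Mid, Late and XEN array, 6 of 6 primed epiblast markers on every EpiSC array and 6 of 6 anterior definitive endoderm markers on every ADE array. All 7 naive markers were also above background on every Diff array, and all 7 primitive endoderm markers on every ADE array. Every EpiSC array also had all 6 anterior definitive endoderm markers and 6 of 7 naive markers above background. The presence of the anterior definitive endoderm markers thus did not separate ADE from EpiSC. Their summed level (log2) was 3.00 to 3.24 in EpiSC and 8.15 to 8.67 in ADE. The primed epiblast markers summed to 6.77 to 6.98 in EpiSC, 6.28 to 6.89 in Diff and 9.03 to 9.52 in ADE. Their summed level was thus not highest in EpiSC, and 5 of 6 were above background on every ADE array. The first set of arrays (ESC to XEN) shares no slide, scan day or scanner software version with the second (2iL to NACL). Groups are therefore tested against each other only within a set. Levels and orders of groups given across both sets are description only, for every arm. XEN 1 stood apart from XEN 2 and XEN 3 in the sterol genes, as did Late 2, Diff 1, Mid 2 and NACL 1, less widely, from their replicates.

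**Figure D1:**
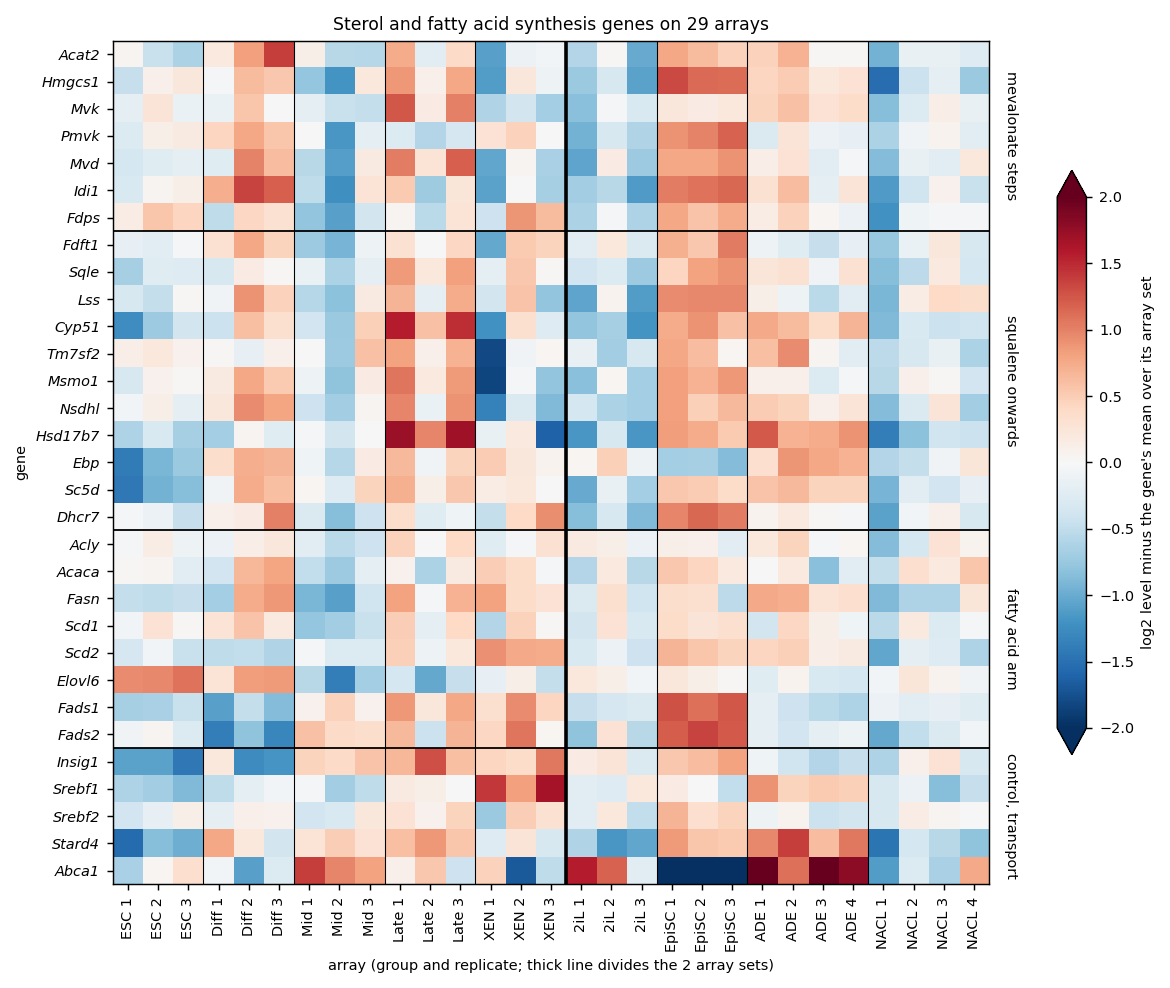
Level of each of the 31 genes (rows) on each of the 29 arrays (columns), as the log2 level minus the gene's own mean over its set of arrays; red is above and blue below that mean, and colours stop at -2 and 2. The 3 EpiSC columns are red through most of the sterol arm, and Abca1 is darkest blue there.

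The sterol enzymes were highest in primed epiblast stem cells. Of the 18 sterol enzymes, 12 had their highest group mean in EpiSC, 3 in Late, 2 in Diff and 1 in ADE. The lowest mean fell in XEN for 6 and in Mid for 5. These orders run across both sets of arrays and describe the levels only. Hmgcs1, the synthase that makes HMG-CoA, had means of 5.54 ± 0.37 (SD, n = 3) in ESC, 5.97 ± 0.36 in Diff, 5.0 ± 0.72 in Mid, 6.16 ± 0.42 in Late and 5.25 ± 0.70 in XEN. In the second set it had 5.28 ± 0.37 in 2iL, 7.18 ± 0.11 in EpiSC, 6.35 ± 0.13 in ADE (n = 4) and 5.27 ± 0.58 in NACL (n = 4). Ranked by mean, neighbouring groups lay further apart than their SD between EpiSC and ADE and between Diff and ESC, and closer than the larger SD elsewhere. Sqle, the squalene epoxidase, ran from 5.10 ± 0.24 in ESC and 5.15 ± 0.24 in 2iL to 6.11 ± 0.36 in Late and 6.32 ± 0.25 in EpiSC.

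The fatty acid enzymes followed no common order. Fasn, the fatty acid synthase, had its highest means in Late (1.15 ± 0.46) and XEN (1.15 ± 0.27) and its lowest in Mid (-0.14 ± 0.36), with 0.53 ± 0.49 in EpiSC and 1.01 ± 0.25 in ADE. Scd1, a desaturase that makes monounsaturated fatty acids, had 4.04 ± 0.19 in Diff, 3.06 ± 0.17 in Mid and 2.90 ± 0.31 in NACL. Its paralogue Scd2 was highest in XEN (8.17 ± 0.09), then EpiSC (7.79 ± 0.12), and lowest in NACL (6.70 ± 0.39). The desaturases for polyunsaturated fatty acids, Fads1 and Fads2, and the elongase Elovl6 were among the 4 fatty acid enzymes with their highest mean in EpiSC.

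The control genes had orders of their own. Srebf1 was highest in XEN (0.49 ± 0.43), where all 3 arrays lay above every other array in the study, and lowest in NACL (-1.67 ± 0.31). Srebf2 covered a narrow range, from 1.42 ± 0.23 in ADE to 2.25 ± 0.17 in Late. Insig1, which holds SREBP precursors back, had 0.97 ± 0.20 in ESC, 2.63 ± 0.09 in Mid, 3.01 ± 0.38 in Late and 2.78 ± 0.38 in XEN. Abca1 had the widest range of the 31, from -4.71 ± 1.19 in EpiSC to 1.37 ± 0.29 in Mid.

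**Figure D2:**
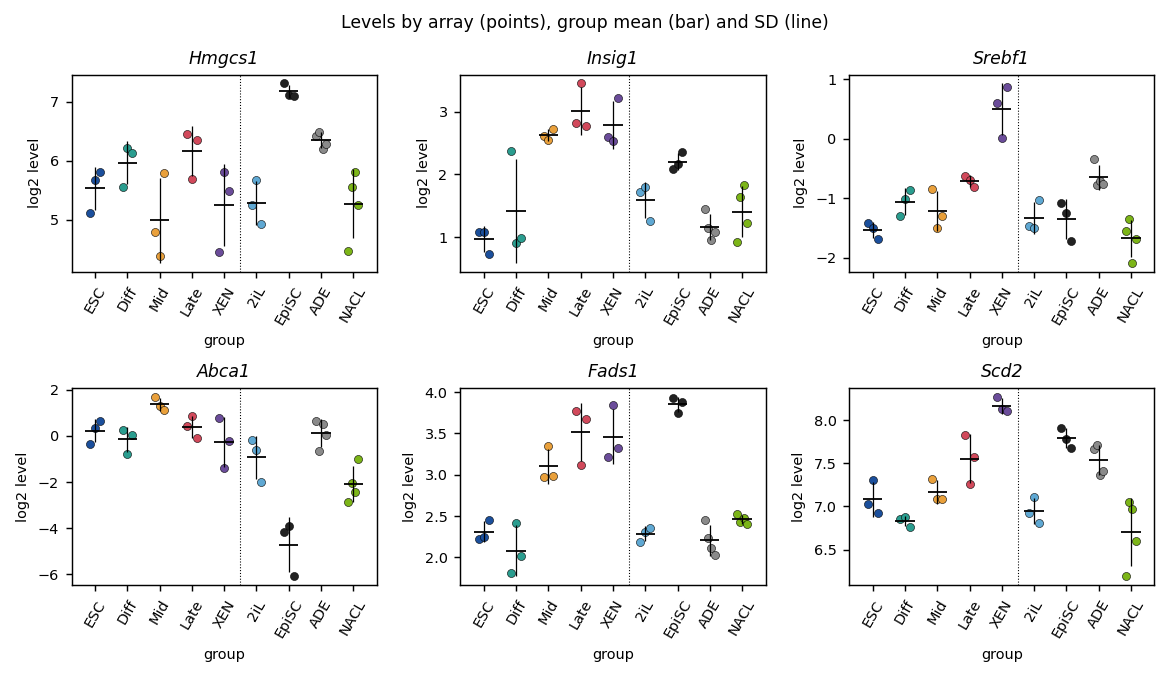
Log2 level of Hmgcs1, Insig1, Srebf1, Abca1, Fads1 and Scd2 on each array (points), with the group mean (bar) and SD (vertical line); the dotted line divides the 2 sets of arrays. Hmgcs1 and Fads1 are high in EpiSC, where Abca1 lies between -6.07 and -3.89.

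To contrast both arms on each array, each gene's level was taken relative to its own mean over the set, and the median over the arm was formed. The sign of these values is therefore relative to the other groups of the same set and depends on which groups that set holds. The sterol arm lay above the fatty acid arm on all 3 EpiSC arrays (by 0.32, 0.35 and 0.54), all 4 ADE arrays (0.14 to 0.41), all 3 Diff arrays (0.32 to 0.45) and all 3 Late arrays (0.19 to 0.33). It lay below on all 3 2iL arrays (-0.43, -0.37 and -0.35) and all 3 XEN arrays (-1.19, -0.24 and -0.19). ESC, Mid and NACL arrays fell on both sides, with means of -0.13 ± 0.19 (SD, n = 3), 0.14 ± 0.31 (n = 3) and -0.07 ± 0.21 (n = 4). Within the second set the sterol-minus-fatty-acid value was 0.40 ± 0.12 in EpiSC and -0.38 ± 0.04 in 2iL, and these arrays did not overlap. With the mean over each arm in place of the median, EpiSC had 0.19. Within the first set it was 0.38 ± 0.06 in Diff and -0.54 ± 0.56 in XEN, where XEN 1 set the width of the spread. With the deposited value table, Diff had 0.18.

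**Figure D3:**
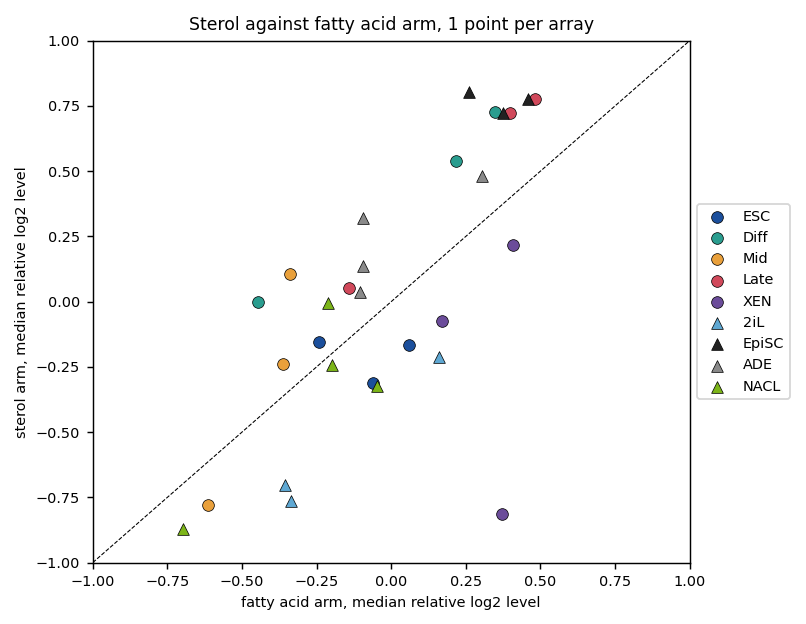
Sterol arm (vertical axis) against fatty acid arm (horizontal axis), each the median log2 level of its genes relative to their means over the set; 1 point per array, circles for the first set and triangles for the second, with a dashed line of equal values. EpiSC, ADE, Diff and Late arrays lie above the line, and the 2iL and XEN arrays below it.

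EpiSC against 2iL sets primed against naive pluripotent cells. Nearly the whole sterol arm was higher in EpiSC: 15 of 18 enzymes rose, by 0.87 to 1.89 on the log2 scale, 1 fell and 2 did not pass. In the fatty acid arm 3 of 8 rose. In all, 22 of 31 members were called, 20 higher and 2 lower, against 41.6% of all genes (21.5% higher, 20.1% lower). The median difference was 1.24 for the sterol arm, 0.57 for the fatty acid arm and -0.02 for all genes. In bulk cultures a lower share of cells with a transcript and less of it per cell cannot be told apart.

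Among the mevalonate steps Hmgcs1 read 5.25, 5.67 and 4.93 on the 2iL arrays and 7.31, 7.12 and 7.10 on the EpiSC arrays, a difference of 1.89 (SE 0.37, adjusted p = 0.000199), or 3.72-fold. Idi1, the isomerase that makes the reactive isoprenoid unit, read 4.03, 4.17 and 3.60 in 2iL and 5.75, 5.81 and 5.87 in EpiSC (1.88, SE 0.36, adjusted p = 0.000196). For both genes every EpiSC array lay more than 1 log2 unit above the highest 2iL array. From squalene onwards Dhcr7, the reductase of the last step to cholesterol, read 1.14, 1.67 and 1.1 in 2iL and 2.97, 3.14 and 3.01 in EpiSC (1.74, SE 0.31, adjusted p = 9.47e-05). Pmvk (1.65), Lss, the lanosterol synthase (1.66), Cyp51, the lanosterol demethylase (1.63), Hsd17b7 (1.59), Mvd (1.35), Msmo1 (1.28), Nsdhl (1.20), Sqle (1.17), Acat2 (1.14), Fdps (1.12), Sc5d (1.09) and Fdft1 (0.87) rose as well. Mvk (0.60, adjusted p = 0.0740) and Tm7sf2 (0.87, adjusted p = 0.0745) did not pass. The second probe of Mvk gave 0.66 and was called, and that of Tm7sf2 gave 0.90 without a call.

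Ebp, the sterol isomerase, was the 1 sterol enzyme that fell. It read 5.30, 5.74 and 5.16 in 2iL and 4.59, 4.60 and 4.39 in EpiSC, so the groups did not overlap (-0.88, SE 0.25, adjusted p = 0.00642).

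In the fatty acid arm Fads1, Fads2 and Scd2 rose. Fads2 read -1.25, -0.16 and -1.01 in 2iL and 0.75, 0.90 and 0.77 in EpiSC (1.62, SE 0.30, adjusted p = 0.000148). Fads1 read 2.18, 2.31 and 2.36 in 2iL and 3.92, 3.75 and 3.88 in EpiSC (1.57, SE 0.19, adjusted p = 5.40e-07). Scd2 read 6.93, 7.10 and 6.81 in 2iL and 7.91, 7.78 and 7.68 in EpiSC (0.84, SE 0.19, adjusted p = 0.000964). None of these groups overlapped. The desaturase Scd1 (0.45, SE 0.25) and the elongase Elovl6 (0.03, SE 0.22) did not pass. The enzymes that build palmitate did not pass by the probes used. Acly, the citrate lyase, differed by -0.06 and Acaca, the acetyl-CoA carboxylase, by 0.70 (adjusted p = 0.0855). Fasn differed by 0.18, with a 95% interval from -0.56 to 0.91. A second Acaca probe gave 1.13 and was called higher, while another gave 0.61 without a call.

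Abca1, which moves cholesterol out of the cell, went the other way. It read -0.20, -0.59 and -1.98 in 2iL and -4.18, -3.89 and -6.07 in EpiSC, where it was well above background on 1 of 3 arrays (-3.79, SE 0.59, adjusted p = 1.58e-05), and on the other 2 it was not well above background. Stard4, a carrier of cholesterol between membranes, read 1.80, 1.24 and 1.37 in 2iL and 3.26, 2.96 and 2.93 in EpiSC (1.58, SE 0.28, adjusted p = 8.69e-05). Srebf2 read 1.40, 1.85 and 1.14 in 2iL and 2.31, 1.97 and 2.07 in EpiSC (0.65, SE 0.26, adjusted p = 0.0457), and its second probe gave 0.74 without a call. Srebf1 differed by -0.02 (SE 0.23) and Insig1 by 0.61 (SE 0.31), and neither passed. Among 29 other genes of the pathway 11 rose and 3 fell. The largest rises were in Soat1, which esterifies cholesterol (4.20), and Mid1ip1, a partner of acetyl-CoA carboxylase (1.76). The largest falls were in Abcg1, a further sterol exporter (-4.79), and Acacb, the mitochondrial carboxylase (-1.44).

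These arrays differ in more than the state of the cells. The EpiSC arrays are of the line HRHNG and the 2iL arrays of 3 other lines, so line, medium and state cannot be told apart. Fibroblast and feeder markers had a higher summed level in EpiSC, at 4.09 to 4.66 (log2) against 0.96 to 1.56 in 2iL. In EpiSC 6 of 6 were well above background on all arrays, against 4 of 6 in 2iL, where Postn was above background on no array. Thy1 went the other way, with a mean of 0.17 in EpiSC and 0.61 in 2iL. The part of these markers in the result was not tested. Of the 22 calls, 19 held under every alternative and with each array left out. The exceptions were Acat2, not called without 2iL 3 (0.90, adjusted p = 0.0644), Fdft1 (0.73 without EpiSC 3, adjusted p = 0.109; also not called without 2iL 1, 2iL 3 or EpiSC 1) and Srebf2 (0.49 without 2iL 3, adjusted p = 0.185; also not called without 2iL 1 or any EpiSC array). Scaling to the median moved the median of all genes from -0.02 to 0.10 and left 20 members called, 18 higher and 2 lower.

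**Figure D4:**
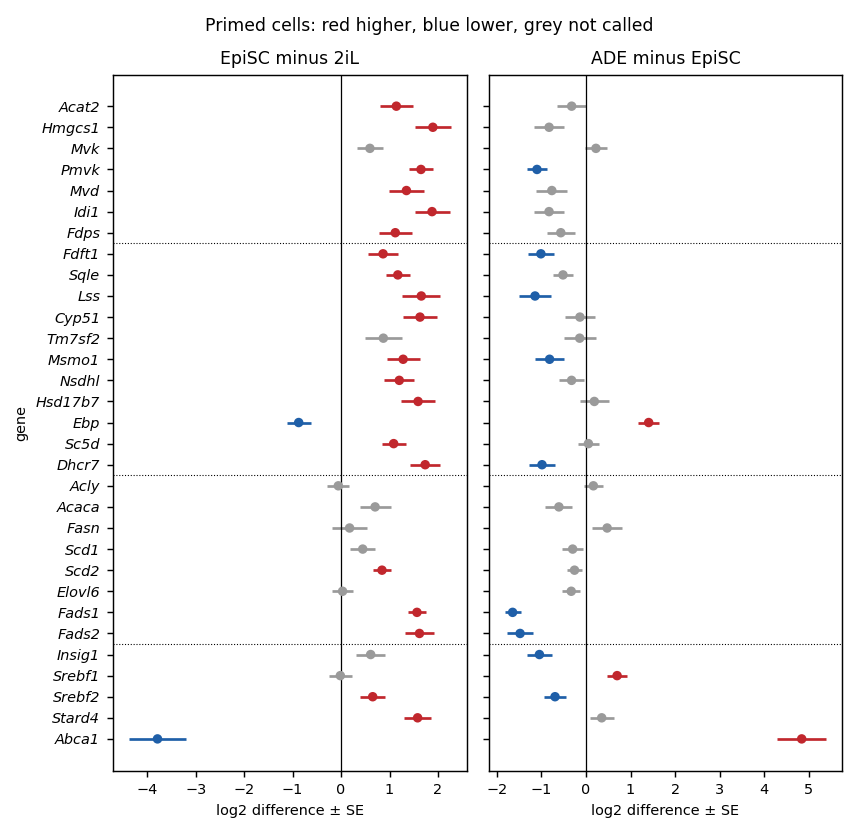
Log2 difference ± SE of each of the 31 genes for EpiSC minus 2iL (left) and ADE minus EpiSC (right); red points were called higher, blue lower and grey were not called, and dotted lines divide mevalonate steps, squalene onwards, fatty acid arm and control genes. On the left 15 of 18 sterol enzymes are red; on the right Abca1 (4.84) and Ebp (1.41) are red where they were blue.

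ADE minus EpiSC follows primed cells through 4 days of endoderm differentiation, and it shares the EpiSC arrays with the comparison above. The sterol arm was mixed here: 5 of 18 enzymes fell, 1 rose and 12 did not pass. In the fatty acid arm 2 of 8 fell, both desaturases. Abca1 rose, from a level well above background on 1 of 3 EpiSC arrays. In all, 12 of 31 members were called against 37.6% of all genes, 3 higher (16.9% of all genes) and 9 lower (20.7%), and the median difference was -0.54 for the sterol arm, -0.31 for the fatty acid arm and -0.05 for all genes.

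Lss read 3.47, 3.48 and 3.48 in EpiSC and 2.64, 2.42, 1.98 and 2.30 in ADE (-1.14, SE 0.37, adjusted p = 0.0160). Pmvk, a mevalonate pathway kinase, read 6.43, 6.54 and 6.72 in EpiSC and 5.26, 5.80, 5.43 and 5.37 in ADE (-1.10, SE 0.23, adjusted p = 0.000624). Fdft1, the squalene synthase, read 4.93, 4.76 and 5.26 in EpiSC and 4.11, 3.97, 3.75 and 4.05 in ADE (-1.01, SE 0.29, adjusted p = 0.00793), and its second probe gave -0.68 without a call. Every ADE array lay below every EpiSC array for these 3 genes. Dhcr7 (-0.99) and Msmo1 (-0.82, adjusted p = 0.0486) fell too, though Msmo1 was not called when any 1 of the 7 arrays was left out (adjusted p up to 0.117, difference -0.86 to -0.73). Ebp read 4.59, 4.60 and 4.39 in EpiSC and 5.59, 6.15, 6.03 and 5.96 in ADE, a rise of 1.41 (SE 0.23, adjusted p = 3.99e-05).

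Fads1 read 3.92, 3.75 and 3.88 in EpiSC and 2.45, 2.24, 2.11 and 2.03 in ADE (-1.64, SE 0.18, adjusted p = 1.61e-07). Fads2 read 0.75, 0.90 and 0.77 in EpiSC and -0.63, -0.84, -0.65 and -0.55 in ADE (-1.48, SE 0.28, adjusted p = 0.000226). No ADE array reached the EpiSC range for either gene. The palmitate enzymes Fasn (0.48, SE 0.33), Acly (0.17, SE 0.21) and Acaca (-0.61, SE 0.30) did not pass.

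Abca1 read -4.18, -3.89 and -6.07 in EpiSC and 0.63, -0.67, 0.51 and 0.03 in ADE, well above background on all 4 ADE arrays (4.84, SE 0.55, adjusted p = 3.44e-07). Insig1 read 2.09, 2.17 and 2.35 in EpiSC and 1.45, 1.14, 0.95 and 1.09 in ADE (-1.04, SE 0.29, adjusted p = 0.00569). Srebf1 read -1.08, -1.25 and -1.73 in EpiSC and -0.34, -0.79, -0.72 and -0.77 in ADE (0.70, SE 0.22, adjusted p = 0.0140). Srebf2 read 2.31, 1.97 and 2.07 in EpiSC and 1.53, 1.70, 1.20 and 1.26 in ADE (-0.69, SE 0.24, adjusted p = 0.0261). So the SREBP genes moved in opposite directions, with no overlap between groups for either. The Srebf1 call was lost without EpiSC 3 (0.51, adjusted p = 0.111) or ADE 1 (0.59, adjusted p = 0.0507), and with median scaling; the Srebf2 call was lost without EpiSC 1 (-0.60, adjusted p = 0.106), EpiSC 3, ADE 3 or ADE 4, and with median scaling. Of 29 other pathway genes 6 rose and 11 fell. Mylip, a ubiquitin ligase, was among those that rose (3.68), and Acss2, the acetyl-CoA synthetase (-2.32), and Slc25a1, the citrate carrier (-1.64), fell most. Fibroblast and feeder markers summed to 2.10 to 4.14 in ADE against 4.09 to 4.66 in EpiSC, and their part in these differences was not tested.

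NACL minus 2iL compares stem cells of the same lines kept in Activin, CHIRON and LIF or in 2i with LIF. None of the 31 members was called by limma, against 8.25% of all genes (4.12% higher, 4.13% lower), and 1 of 31 had an unadjusted p under 0.05. That gene was Abca1, which read -0.20, -0.59 and -1.98 in 2iL and -2.88, -2.05, -2.41 and -1.01 in NACL (-1.16, SE 0.55, 95% interval -2.31 to -0.02, adjusted p = 0.229), and the groups overlapped. In the sterol arm the largest difference was in Lss, which read 1.47, 2.59 and 1.41 in 2iL and 1.60, 2.67, 2.92 and 2.88 in NACL (0.70, SE 0.37, 95% interval -0.06 to 1.45, adjusted p = 0.291). In the fatty acid arm it was Acaca, at 3.86, 4.64 and 3.90 in 2iL and 3.97, 4.78, 4.64 and 5.0 in NACL (0.47, SE 0.30, adjusted p = 0.423). Hmgcs1 differed by -0.01, with a 95% interval from -0.72 to 0.70. The median difference was 0.15 for the sterol arm, -0.08 for the fatty acid arm and 0.06 for all genes. NACL 1 was the lowest NACL array for most sterol enzymes. Both groups hold the same lines, and with the line as a block, fitted to these arrays only, the count of members stayed at 0. Among the other pathway genes Soat1 rose (1.51), and Abcg1 (-1.64) and Mylip (-1.10) fell.

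Diff minus ESC asks how the pathway stood after 7 to 8 days of endoderm induction from naive cells of the line HRHnG. Of 18 sterol enzymes 5 rose and none fell, and 1 of 8 fatty acid enzymes fell. In all, 7 of 31 members were called, 6 higher and 1 lower, against 42.4% of all genes (23.5% higher, 18.9% lower), so the share of members called was below that of all genes. The median difference was 0.64 for the sterol arm, -0.08 for the fatty acid arm and -0.04 for all genes. Naive markers moved with this comparison, from a summed level of 8.58 to 8.59 in ESC to 6.2 to 7.22 in Diff, and their part in the result was not tested.

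The called enzymes came from early and late steps (2 of 7 mevalonate enzymes and 3 of 11 from squalene onwards). Ebp read 4.57, 5.06 and 5.24 in ESC and 6.34, 6.70 and 6.65 in Diff (1.60, SE 0.25, adjusted p = 1.42e-05), or 3.04-fold. Sc5d, the sterol desaturase that acts after Ebp, read 0.95, 1.45 and 1.54 in ESC and 2.32, 3.12 and 2.98 in Diff (1.50, SE 0.25, adjusted p = 3.60e-05). Acat2, the thiolase of the first step, read 0.06, -0.44 and -0.62 in ESC and 0.21, 0.83 and 1.39 in Diff (1.14, SE 0.35, adjusted p = 0.00976). These 3 groups of values did not overlap, and Ebp and Sc5d kept their calls under every alternative. Idi1 (1.14, SE 0.36) and Cyp51 (0.94, SE 0.36) rose as well. The Acat2 call was lost without Diff 3 (0.85, adjusted p = 0.0730), the Idi1 call without ESC 1 (1.01, adjusted p = 0.0568) or Diff 2 (1.01, adjusted p = 0.0549), and the Cyp51 call without ESC 1 (0.71, adjusted p = 0.167), ESC 2, Diff 2 or Diff 3. Hmgcs1 (0.43, SE 0.37) did not pass.

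Fads2 read -0.59, -0.46 and -0.79 in ESC and -1.91, -1.33 and -1.82 in Diff, a fall without overlap (-1.07, SE 0.30, adjusted p = 0.00620). Stard4 read 1.76, 2.43 and 2.31 in ESC and 4.06, 3.50 and 2.92 in Diff (1.33, SE 0.28, adjusted p = 0.000532), and its second probe gave 1.46, also called. Insig1 read 2.38 on Diff 1 against 0.90 and 0.99 on the other Diff arrays. Of 29 other pathway genes 9 rose, led by Soat1 (4.88) and the elongase Elovl1 (2.92), and 6 fell, led by Mcat, of mitochondrial fatty acid synthesis (-1.09), and Acacb (-0.95). Scaling to each array's median moved the median of all genes from -0.04 to 0.32 and the share of higher genes among those called from 55.4% to 74.1%. Under it 12 members were called, 12 higher and 0 lower (10 sterol and 1 fatty acid enzyme), and Fads2 was not called.

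Mid minus Diff follows the first passages of the endoderm. Of the 18 sterol enzymes 8 fell, by 0.75 to 1.58 on the log2 scale, and none rose. With median scaling 3 fell. With the replicate as a block all 8 calls were lost (limma adjusted p from 0.0702 to 0.149). That fit used only the Diff and Mid arrays, whose replicates share only a number. The fatty acid arm split, with 3 of 8 lower and 2 higher. In all, 14 of 31 members were called against 29.1% of all genes, 3 higher (12.3% of all genes) and 11 lower (16.8%), and the median difference was -0.83 for the sterol arm, -0.65 for the fatty acid arm and -0.06 for all genes.

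Idi1 read 4.40, 5.03 and 4.88 in Diff and 3.17, 2.46 and 3.95 in Mid (-1.58, SE 0.36, adjusted p = 0.00206). Acat2 read 0.21, 0.83 and 1.39 in Diff and 0.12, -0.55 and -0.56 in Mid (-1.14, SE 0.35, adjusted p = 0.0155). Fdft1 read 4.01, 4.48 and 4.16 in Diff and 2.97, 2.78 and 3.61 in Mid (-1.10, SE 0.31, adjusted p = 0.0102), and its second probe gave -0.73 without a call. Mid lay below Diff on every array for these genes, with Mid 2 lowest or nearly so. Pmvk (-1.04), Nsdhl (-1.0), Hmgcs1 (-0.98), Dhcr7 (-0.94) and Ebp (-0.75) fell as well.

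Elovl6, which lengthens palmitate, read 3.86, 4.41 and 4.43 in Diff and 3.03, 2.19 and 2.90 in Mid (-1.53, SE 0.22, adjusted p = 1.49e-05). Fasn read -0.01, 1.40 and 1.54 in Diff and -0.26, -0.42 and 0.26 in Mid, and the groups overlapped (-1.11, SE 0.36, adjusted p = 0.0210). Scd1 read 3.97, 4.26 and 3.89 in Diff and 2.93, 3.00 and 3.25 in Mid (-0.98, SE 0.25, adjusted p = 0.00545). Against these falls, Fads2 rose from -1.91, -1.33 and -1.82 to 0.06, -0.13 and -0.17 (1.61, SE 0.30, adjusted p = 0.000364), and Fads1 rose from 1.81, 2.41 and 2.02 to 2.97, 3.35 and 2.98 (1.02, SE 0.19, adjusted p = 0.000325). Fads1 and Fads2 thus rose, without overlap of their groups, where Elovl6, Fasn and Scd1 fell, while Acly (-0.47, adjusted p = 0.127) and Acaca (-0.83, adjusted p = 0.0570) did not pass. Insig1 rose from 2.38, 0.90 and 0.99 in Diff to 2.61, 2.55 and 2.73 in Mid (1.21, SE 0.31, adjusted p = 0.00465). Of 29 other pathway genes 3 rose, led by Me1, the malic enzyme (1.17), and Abcg1 (1.13), and 4 fell, among them Mid1ip1 (-1.0).

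Naive markers summed to 5.10 to 5.71 in Mid against 6.2 to 7.22 in Diff, with 5 of 7 above background on all Mid arrays, and their part in these differences was not tested. Median scaling ended the calls of Acat2, Hmgcs1, Nsdhl, Ebp, Dhcr7 and Insig1. Several calls also rest on few arrays. Without Mid 2, 7 members were called, without Diff 3, 8, and without Diff 2, 9. Hmgcs1 was not called without Diff 2, Diff 3, Mid 1 or Mid 2 (-0.67 without Mid 2, adjusted p = 0.243), and the same 4 arrays decided Fasn (-0.83 without Diff 3, adjusted p = 0.135). The calls of Nsdhl and Ebp were lost without Diff 2, Diff 3 or Mid 2 (-0.83 and -0.55 without Mid 2), that of Dhcr7 without Diff 3 (-0.65) or Mid 2 (-0.78), that of Acat2 without Diff 3 (-0.85), Mid 2 (-1.03) or Mid 3 (-1.03), and that of Fdft1 without Diff 2 (-0.96) or Mid 2 (-0.92).

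**Figure D5:**
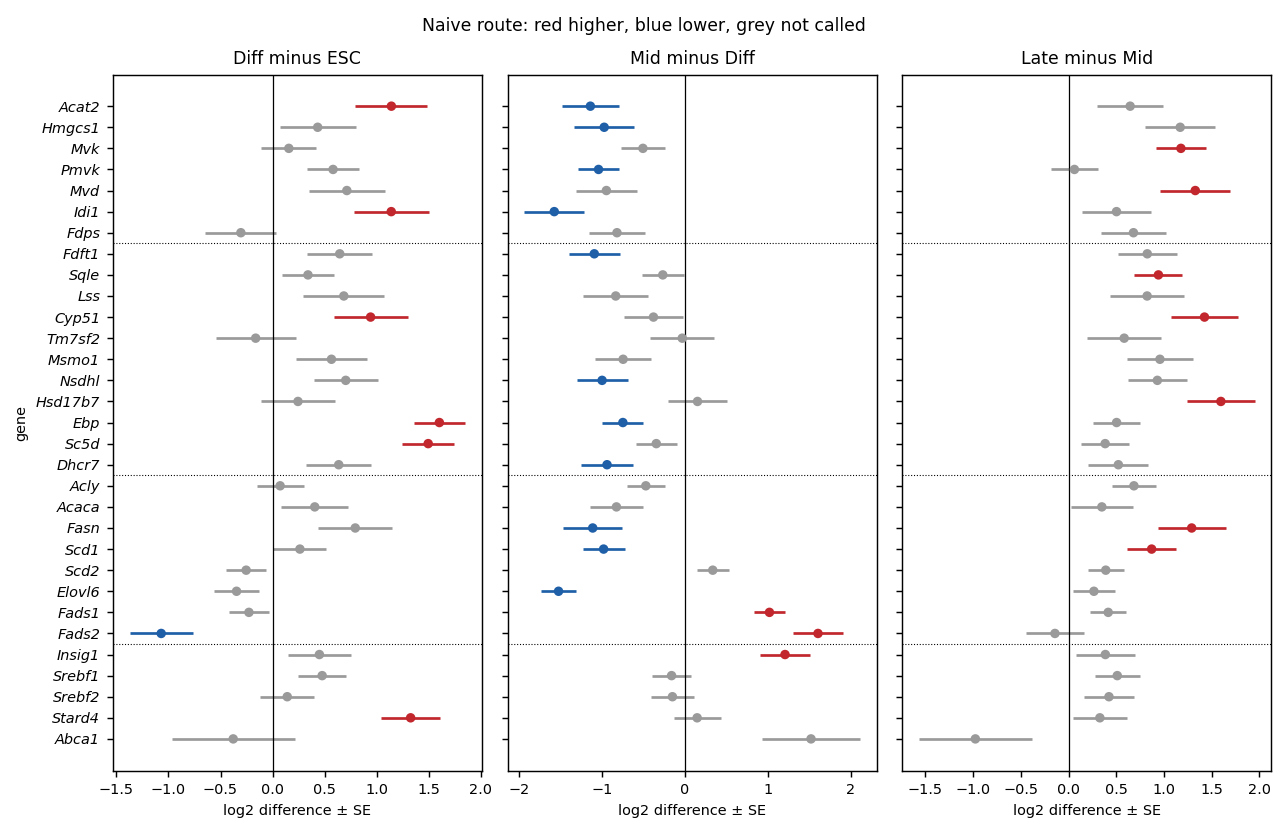
Log2 difference ± SE of each of the 31 genes for Diff minus ESC, Mid minus Diff and Late minus Mid; red points were called higher, blue lower and grey were not called, and dotted lines divide the arms. Of the sterol enzymes 5 are red on the left, 8 blue in the middle and 5 red on the right, and neighbouring panels share a group of arrays.

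Late minus Mid compares passages of the same endoderm. By the fit without pairing, 5 of 18 sterol enzymes and 2 of 8 fatty acid enzymes were higher in Late, 7 of 31 members in all against 6.85% of all genes (3.78% higher), and 0 were lower (3.07% of all genes). The replicate numbers pair Mid with Late. With the replicate as a block 0 members and 0 of all genes were called by limma, while 18 members and 3488 genes had an unadjusted p under 0.05. That fit used only the Mid and Late arrays, which without the block gave 1 member. The block and the smaller set of arrays thus both set it apart from the main fit. The median difference was 0.82 for the sterol arm, 0.40 for the fatty acid arm and 0.12 for all genes.

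Hsd17b7, which removes a methyl group from the sterol ring with Nsdhl, read 0.88, 0.56 and 0.93 in Mid and 2.64, 1.90 and 2.62 in Late (1.60, SE 0.35, adjusted p = 0.00828, and 0.0798 with the block). Cyp51 read 1.01, 0.65 and 1.87 in Mid and 2.96, 1.97 and 2.86 in Late (1.42, SE 0.36, adjusted p = 0.0176, and 0.116 with the block). Mvd, the decarboxylase of the mevalonate steps, read 2.58, 2.03 and 3.32 in Mid and 4.17, 3.41 and 4.33 in Late (1.33, SE 0.37, adjusted p = 0.0306, and 0.0979 with the block). Fasn read -0.26, -0.42 and 0.26 in Mid and 1.47, 0.62 and 1.35 in Late (1.29, SE 0.36, adjusted p = 0.0299, and 0.113 with the block). Scd1 read 2.93, 3.00 and 3.25 in Mid and 4.19, 3.51 and 4.09 in Late (0.87, SE 0.25, adjusted p = 0.0401, and 0.162 with the block). For each of these 5 genes all Late arrays lay above all Mid arrays, with Late 2 lowest of the Late arrays. Mvk (1.18) and Sqle (0.94) were the other calls. Among the control genes the largest difference was in Abca1, which read 1.69, 1.28 and 1.12 in Mid and 0.41, 0.85 and -0.10 in Late (-0.98, SE 0.59, adjusted p = 0.363).

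The 7 calls depended on single arrays: none remained without Late 1 or without Late 3, and 2 remained (Mvk and Hsd17b7) without Mid 1 or without Mid 2. Differences of the 7 genes ran from 0.74 to 1.84 over the left-out fits. Scaling to the median of each array moved the median of all genes from 0.12 to -0.04 and the share higher among called genes from 55.2% to 23.4%, and left 1 member, higher, called. Quantile normalisation gave 38.8% higher and 5 members, all higher. Of 29 other pathway genes 4 rose, led by Aacs, the acetoacetyl-CoA synthetase (1.70), and Mylip (1.67), and 0 fell.

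Expanded endoderm (nEnd, Mid and Late averaged as groups) was set against XEN, an established line of extraembryonic endoderm. Of 18 sterol enzymes 6 were higher in nEnd and 2 lower, a balance that turned to 2 higher and 4 lower without XEN 1 and to 1 higher and 3 lower with median scaling. Of 8 fatty acid enzymes 2 were lower and none higher, a share near that of all genes called lower. In all, 12 of 31 members were called against 41.1% of all genes (16.6% higher, 24.5% lower), and the median difference was 0.33 for the sterol arm, -0.36 for the fatty acid arm and -0.03 for all genes. With the replicate as a block 3 members were called, 1 higher and 2 lower. That fit used only the Mid, Late and XEN arrays, which without the block gave 5 members.

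Srebf1 read -0.85, -1.50 and -1.31 in Mid, -0.63, -0.69 and -0.82 in Late and 0.60, 0.01 and 0.86 in XEN (-1.46, SE 0.20, adjusted p = 3.81e-06), or 2.75-fold lower in nEnd. It was the 1 member called under every alternative and with each array left out. Scd2 read 7.32, 7.09 and 7.08 in Mid, 7.83, 7.26 and 7.57 in Late and 8.27, 8.12 and 8.10 in XEN (-0.81, SE 0.16, adjusted p = 0.000381), again without overlap. Elovl6 read 3.03, 2.19 and 2.90 in Mid, 3.23, 2.56 and 3.12 in Late and 3.41, 3.69 and 3.10 in XEN (-0.56, SE 0.19, adjusted p = 0.0187). The Scd2 call was lost with quantile normalisation.

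Among sterol enzymes Hsd17b7 read 0.88, 0.56 and 0.93 in Mid, 2.64, 1.90 and 2.62 in Late and 0.78, 1.11 and -0.69 in XEN (1.19, SE 0.31, adjusted p = 0.00308). Its second probe gave 0.52 without a call. Msmo1, a sterol methyl oxidase, read 5.59, 4.88 and 5.86 in Mid, 6.76, 5.89 and 6.55 in Late and 3.86, 5.67 and 4.91 in XEN (1.11, SE 0.30, adjusted p = 0.00423). Nsdhl read 0.93, 0.66 and 1.40 in Mid, 2.32, 1.22 and 2.24 in Late and -0.00, 1.06 and 0.46 in XEN (0.95, SE 0.27, adjusted p = 0.00577). In all 3 genes the XEN arrays overlapped Mid. Cyp51 (0.88), Tm7sf2 (0.86) and Mvk (0.77) were higher too. Fdps, the farnesyl diphosphate synthase, read 4.94, 4.64 and 5.37 in Mid, 5.78, 5.19 and 6.00 in Late and 5.32, 6.62 and 6.37 in XEN (-0.78, SE 0.30, adjusted p = 0.0380). Pmvk read 5.32, 4.15 and 5.12 in Mid, 5.05, 4.73 and 4.99 in Late and 5.61, 5.78 and 5.33 in XEN (-0.68, SE 0.22, adjusted p = 0.0137). Stard4 read 3.56, 3.78 and 3.58 in Mid, 3.90, 4.15 and 3.85 in Late and 3.03, 3.55 and 2.97 in XEN (0.62, SE 0.25, adjusted p = 0.0477), and its second probe gave -0.42, not called.

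The balance of sterol calls rested on XEN 1. Without it 2 sterol enzymes were higher (Hsd17b7 1.38, Mvk 0.74) and 4 lower (Fdps -1.17, Dhcr7 -0.92, Pmvk -0.66, Fdft1 -0.65), while Cyp51 (0.47), Tm7sf2 (0.26), Msmo1 (0.63), Nsdhl (0.70), Elovl6 (-0.56, adjusted p = 0.0535) and Stard4 (0.54) were not called. Abca1 was then higher in nEnd (1.66, adjusted p = 0.0250). Hsd17b7 was not called without XEN 3 (0.65, adjusted p = 0.0721), Pmvk without XEN 2 (-0.58), and Fdps without XEN 2 (-0.52), XEN 3, Mid 1, Mid 2 or Late 2. Elovl6 was also not called without XEN 2 (-0.42), Mid 2 or Late 2. Cyp51 was also not called without Mid 3 (0.71), Late 1 or Late 3, Tm7sf2 without those arrays or Mid 1, and Stard4 without any array but XEN 2 (0.51 without XEN 3). Scaling to the median moved the median of all genes from -0.03 to -0.38 and the share higher from 40.4% to 24.0% of called genes; under it 1 sterol enzyme was higher and 3 lower, and 4 fatty acid enzymes were lower. Quantile normalisation gave 7 sterol enzymes higher and 0 lower, with 0 fatty acid enzymes called in either direction. The balance of the sterol calls thus flips under median scaling and without XEN 1, and the fatty acid calls end under quantile normalisation. Of 29 other pathway genes 4 were higher, led by Abcg1 (7.34) and Acacb (3.29), and 7 lower, with the largest fall in Nr1h3, which encodes LXR alpha (-2.39).

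The responses to endoderm induction from naive and from primed cells were compared by the difference of both changes, (Diff minus ESC) minus (ADE minus EpiSC). The sterol arm responded differently: 9 of 18 enzymes changed more upward, or less downward, on the naive side and none the other way, with a median of 1.32 against 0.06 for all genes and 0.36 for the fatty acid arm. In all, 12 of 31 members were called against 36.7% of all genes, 11 in that direction (21.9% of all genes) and 1 in the other (14.9%). Idi1 changed by 1.14 on the naive side and -0.83 on the primed side, a difference of 1.97 (SE 0.50, adjusted p = 0.00311). Lss gave 1.83 (SE 0.53) and Pmvk 1.68 (SE 0.34, adjusted p = 0.000454). In the fatty acid arm Fads1 was the 1 call, at 1.42 (SE 0.26, adjusted p = 0.000160). Insig1 gave 1.49 (SE 0.42), and Abca1 -5.22 (SE 0.81, adjusted p = 2.26e-05), having changed by -0.38 on the naive side and 4.84 on the primed side. The sides lie in different sets of arrays, with 7 to 8 days on one side and 4 days on the other, so route, time and set cannot be told apart. Acat2 was not called without Diff 3 (1.17), Mvd without Diff 2 (1.21) or Diff 3 (1.40), and Msmo1 without ESC 1 (1.26) or Diff 2 (1.24). With scaling to the median, the median of all genes went from 0.06 to 0.45, the share higher among called genes went from 59.5% to 73.6% and the members' split to 17 and 1.

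The same medium components acted on naive cells in both Diff and NACL, and (Diff minus ESC) minus (NACL minus 2iL) sets these changes against each other. Only 3 of 31 members were called, all higher on the Diff side, against 30.3% of all genes (17.0% higher, 13.3% lower). Ebp changed by 1.60 in Diff and -0.36 in NACL (1.96, SE 0.34, adjusted p = 0.000121). Sc5d changed by 1.50 and 0.19 (1.31, SE 0.34, adjusted p = 0.00533). Stard4 changed by 1.33 and 0.14 (1.18, SE 0.39, adjusted p = 0.0233), and its call was lost without ESC 1 (0.98), Diff 1 (0.90) or 2iL 1 (1.02). In the fatty acid arm the largest difference was in Fasn (1.13), which did not pass. Lines, sets of arrays and time in culture differ between the sides as well and cannot be told apart from the treatment. Median scaling moved the median of all genes from -0.10 to 0.29 and the share higher among called genes from 56.2% to 79.3%, with 4 members called, all higher.

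In the comparisons of one group with another, the direction of every call was the same on each slide that held both, except Fdps for nEnd against XEN. The differences of changes were not checked by slide. For Diff minus ESC only 1 slide held both groups, and the arrays on these slides also entered the calls. Ebp went against the other called enzymes of its arm in EpiSC. It was lower than in 2iL where 15 others were higher, and lower than in ADE where 5 others were higher. Both comparisons use the same EpiSC arrays, so they are not separate observations. Where Ebp was called elsewhere it moved with its arm. It was among the 5 sterol enzymes that rose in Diff minus ESC (1.60) and the 8 that fell in Mid minus Diff (-0.75). In NACL minus 2iL it differed by -0.36 without a call, against an arm median of 0.15. For nEnd against XEN it was not called and was lower in nEnd on each shared slide (-0.29 and -0.22), against an arm median of 0.33.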

How the data were processed

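RNA of cells lysed on the plate was labelled with Cy3 and hybridised to 29 Agilent 1-colour arrays. The deposited scanner files hold intensity values, background-corrected by Agilent Feature Extraction (11.0.1.1 and 12.0.1.1 per the file headers; 9.1 per the submitters' processing notes). The deposited value table, used as an alternative, holds log2 values whose centring is not given in the sources used here. Its column medians were 5.94 to 5.95, and it holds 26 of the 31 members.

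Of 59305 spots per array, counted without control spots, 132 to 243 with outlier flags were left out. Levels are log2 of the processed signal minus the array's 75th percentile, which was 152 to 366. Probes were named through RefSeq accessions (27636 of 55681 probes, 20956 symbols). Genes with several probes (10 members) took the probe of highest mean, from all arrays. The 9 group means were fitted over all arrays with limma 3.58.1 in R 4.3.3, with Benjamini-Hochberg adjustment over 16333 genes. In simulated data for Late minus Mid on 16297 genes, the fit called 30% of 100 genes changed by 1 log2 unit and 73% of 100 changed by 2. The planned normexp alternative used median signals because the mean signal column is not in the files.

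Members and lists were chosen with earlier results of these data known. All 31 members are accounted for, and array values are given for up to 3 called members per arm and direction with the largest difference, or the largest uncalled one. Other pathway genes are named up to 2 per direction. Some of these are not reported here. Replicate numbers pair Mid with Late (correlations of deviations 0.218, 0.129 and 0.141), and 2iL with NACL share cell lines. Apart from Mid and Late, the sources used here do not say whether replicates are separate cultures, so p-values measure the spread between these samples. Array number limits the precision. Alternatives were median scaling, quantile normalisation, normexp with offset 50, the deposited value table, no filter, fewer arrays in the fit, blocks, and leaving out each array.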

Additional observations from a re-analysis of the deposited data

Results flagged for a closer look

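In 4 of the 68 groups of 4 arrays examined, 1 array stood apart from the rest, with a gap to its neighbour, as a share of the group's range, past Dixon's 95% critical value. Chance alone gives about 1 in 20 groups. Acat2 in NACL had a ratio of 0.863, with NACL 1 at -1.43 and the others between -0.74 and -0.63. Fdps in NACL had a ratio of 0.951, with NACL 1 at 5.49 and the others between 6.63 and 6.68. Srebf1 in ADE had a ratio of 0.842, with ADE 1 at -0.34 and the others between -0.79 and -0.72. The value of the fatty acid arm in ADE had a ratio of 0.970, with ADE 2 at 0.31 and the others between -0.11 and -0.09.

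The change from ESC to Diff differed from the change from EpiSC to ADE, by limma's test of the difference over all genes, for 12 members. The sterol enzymes were Acat2 (1.46), Pmvk (1.68), Mvd (1.48), Idi1 (1.97), Fdft1 (1.66), Lss (1.83), Msmo1 (1.38), Sc5d (1.44) and Dhcr7 (1.62). The others were Fads1 (1.42), Insig1 (1.49) and Abca1 (-5.22). Fdft1's second probe gave 2.09 without a call. The change from ESC to Diff also differed from that from 2iL to NACL for Ebp (1.96), Sc5d (1.31) and Stard4 (1.18), whose second probe gave 1.35 without a call.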

How the results depend on the processing

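Counts are of the 31 members called. Median scaling gave 12 for Diff minus ESC (7 as reported), 8 for Mid minus Diff (14) and 1 for Late minus Mid (7). Fitting the compared arrays only gave 7 for Mid minus Diff, 1 for Late minus Mid and 5 for nEnd minus XEN (12). The replicate block, also fitted to the compared arrays only, gave 3 for Mid minus Diff, 0 for Late minus Mid and 3 for nEnd minus XEN. Apart from Mid and Late these samples share only a number. A block on scan day, chosen after seeing the data, gave 1 for Late minus Mid. Leaving out each array gave 7 to 17 for Mid minus Diff, 0 to 9 for Late minus Mid and 2 to 5 for (Diff minus ESC) minus (NACL minus 2iL). No called member changed sign under the alternatives run, but the balance of sterol calls for nEnd minus XEN (6 higher and 2 lower) turned to 1 and 3 with median scaling. The sterol-minus-fatty-acid value in Diff (0.38) was 0.48 with the mean over each arm and 0.18 with the deposited value table; in 2iL (-0.38) it was -0.34 with quantile normalisation, and in EpiSC (0.40) 0.19 with the mean over each arm. Where a cause is not part of an alternative's construction, it was not tested. Signal over background limits Abca1 in EpiSC.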
